A study of Mus musculus with 2 samples.

Results

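The proteins of the cytosolic ribosome were followed through their messenger RNAs in the gastrocnemius, the large calf muscle, by long-read RNA sequencing. In this method 1 read is taken to stand for 1 RNA molecule. The genes were chosen by name and type alone: coding genes called Rpl or Rps with a number, the stalk genes Rplp0, Rplp1 and Rplp2, and Rpsa. The annotation holds 82 such genes, of which 80 had reads in both libraries, among 14704 annotated genes with at least 1 read in either. Of these 80, 49 encode proteins of the large subunit and 31 of the small subunit. The other two, Rpl10l and Rpl39l, had 0 reads in both libraries. The mice were males of the strain B6CASTF1/J, a first-generation cross of C57BL/6 and CAST, at 14 days of age. There is 1 group without treatment, with 2 libraries named replicate 1 and replicate 2, each from 2 µg of total RNA. The labels give a single donor identifier for both and name several males, so whether the replicates were separate animals or pools is not stated. All errors below are the spread between these 2 libraries, which may be technical.

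With spike-in RNAs set aside, the libraries came to 1094607 reads (replicate 1) and 626289 (replicate 2). Levels are reads per 1000000 reads of the library (CPM), not divided by length, since 1 read is taken as 1 molecule. Whether short and long messengers were recovered equally was not tested. A count of 0 allows up to 3 reads, or 2.74 CPM in replicate 1 and 4.79 CPM in replicate 2, for counting error alone. The muscle markers Acta1, Ckm, Mylpf, Tnnc2 and Myh4 summed to 206993 and 223293 CPM, so the tissue matched its label, while Pax7, which marks satellite cells, was at 0 reads in replicate 1 and a single read in replicate 2. Coordinates are on mm10.

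A ribosome joins a small subunit, which reads the messenger, to a large subunit, which links amino acids and releases the growing chain through an exit tunnel. Each ribosomal protein is, with few exceptions, needed once per ribosome, and the genes lie scattered over the genome. Their messengers are known for a run of pyrimidines at the very 5′ end, the terminal oligopyrimidine tract, through which growth signals by way of mTOR control their translation. Some members have paralogues used in particular tissues, and Rpl3l is known as the form of striated muscle that replaces Rpl3.

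The start regions of 60 members could be matched to RefSeq promoter sequences (GRCm38.p6), and windows from 50 bases before to 30 bases after the annotated start were searched, on the strand of the gene only, for a C followed by at least 5 pyrimidines. Such a tract lay in the window of 51 of the 60 members (85%), compared with 14648 of 27025 genes of the table (54.2%). Over the windows that held a tract, the longest tract had a median length of 9 bases in 59 windows of members. It was 7 bases in 16570 windows of all genes, where a gene can have several windows. Windows are printed below for members that recur in the results, with the tracts in capitals. The first 5 hold one, and the last 3 do not.

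Rpl35 (chr2:39005102-39005181, minus strand): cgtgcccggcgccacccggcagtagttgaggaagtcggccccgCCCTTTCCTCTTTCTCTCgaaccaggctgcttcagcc
Rpl13 (chr8:123102300-123102379, plus strand): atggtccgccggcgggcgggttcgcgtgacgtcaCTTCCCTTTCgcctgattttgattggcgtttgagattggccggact
Rpl5 (chr5:107900478-107900557, plus strand): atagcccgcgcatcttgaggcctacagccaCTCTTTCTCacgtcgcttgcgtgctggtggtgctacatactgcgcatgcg
Rpl22l1 (chr3:28805458-28805537, plus strand): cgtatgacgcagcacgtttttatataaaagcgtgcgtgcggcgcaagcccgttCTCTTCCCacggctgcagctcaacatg
Rps24 (chr14:24490703-24490782, plus strand): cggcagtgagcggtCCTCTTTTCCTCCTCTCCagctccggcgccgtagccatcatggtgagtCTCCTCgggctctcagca
Rpl3l (chr17:24727776-24727855, plus strand): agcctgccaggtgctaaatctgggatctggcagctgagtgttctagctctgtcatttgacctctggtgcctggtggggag
Rplp0 (chr5:115559417-115559496, plus strand): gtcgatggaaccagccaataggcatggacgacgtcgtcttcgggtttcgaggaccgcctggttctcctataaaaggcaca
Rpl41 (chr10:128549139-128549218, minus strand): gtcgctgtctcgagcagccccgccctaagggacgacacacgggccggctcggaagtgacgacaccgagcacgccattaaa

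The longest of the printed tracts, 18 bases each, were those of Rpl35 and Rps24. Neither of the windows of Rpl3l held a tract. The other members without one in any window were Rpl36a, Rpl37, Rpl9, Rps28, Rps3 and Rps4x. A match is a description of these letters in this window, and no transcription start was measured here.

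The members took 16892 reads of replicate 1 and 17529 of replicate 2, or 1.54% of the library (exact Clopper-Pearson 95% interval 1.52% to 1.57%, for counting error alone) and 2.80% (2.76% to 2.84%). Their summed level was 15432 CPM in replicate 1 and 27989 CPM in replicate 2, with a mean of 21710.3 ± 8879 CPM (SD, n = 2). The median member stood at 156 and 259 CPM (mean 208 ± 73.0), compared with 22.8 and 19.2 CPM for the median of all 7955 genes with at least 10 reads in both libraries together. Most members lay close to each other: 59 of 80 had mean levels between 100 and 500 CPM, 5 lay above and 16 below. In the order of mean levels, 76 of 79 neighbouring pairs overlapped in their values. Most members were higher in replicate 2, which widens these ranges together, so the overlap does not show that neighbours were alike. Between the libraries the log2 levels of the members had a Pearson's r of 0.94 and a Spearman's rho of 0.89. Rpl37, at 111 and 303 CPM, and Rpl23a, at 139 and 273 CPM, lay nearest the median of the list. The members lie on 19 chromosomes, with Rpl10, Rpl36a, Rpl39 and Rps4x on the X chromosome.

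**Figure D1:**
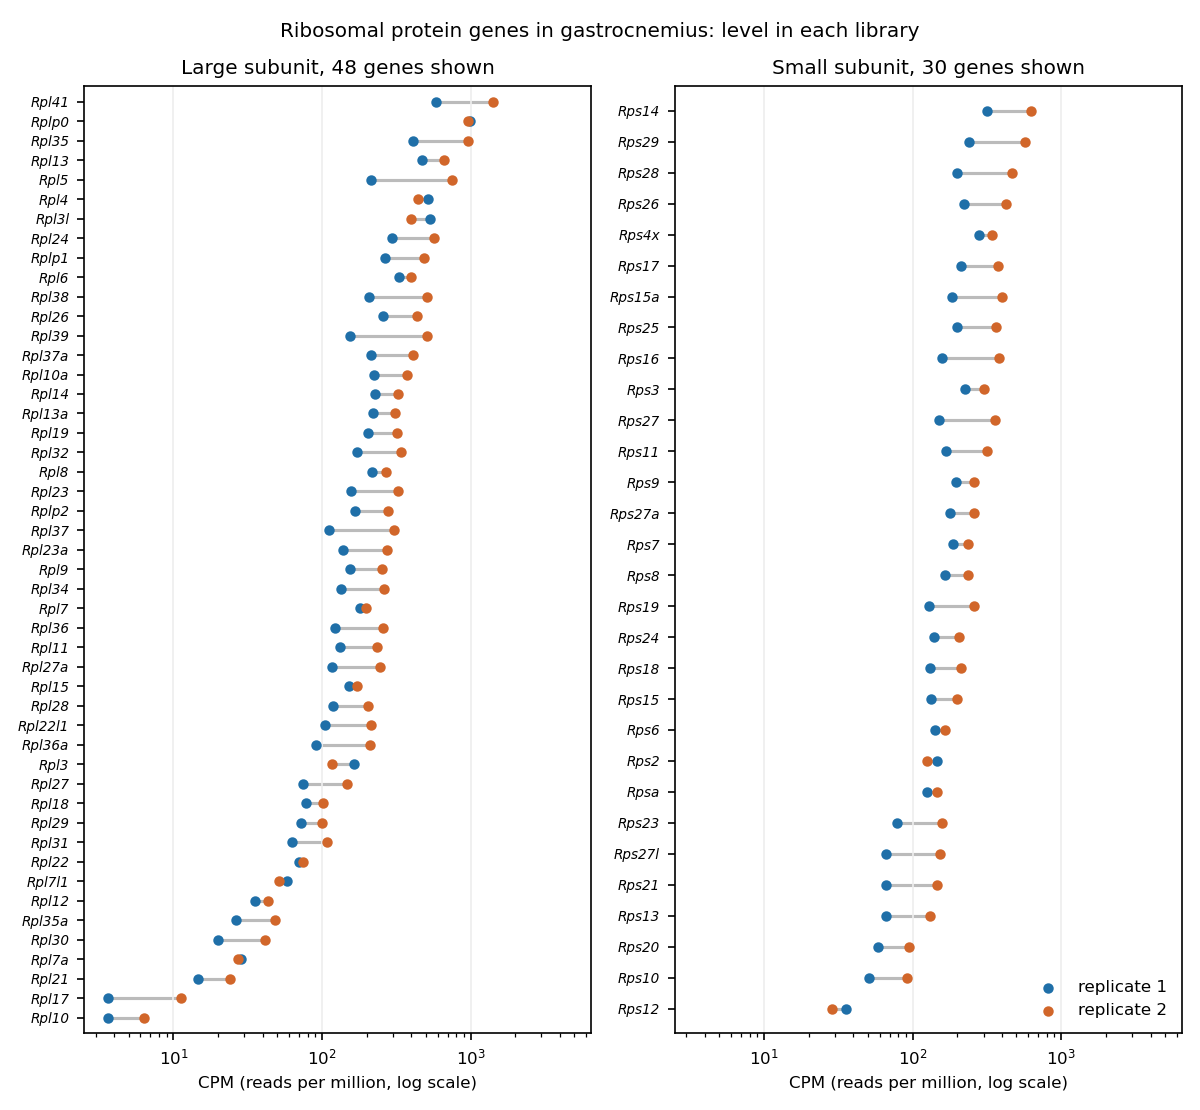
Level of each ribosomal protein gene shown in CPM (log axis), with 1 point per library and a line between them, for 48 large subunit genes (left) and 30 small subunit genes (right). Rpl10 is lowest, and replicate 2 lies to the right of replicate 1 for most genes.

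The members described next were among the most read. Rpl41, the smallest ribosomal protein, with a coding length of 75 bases, had 588 CPM in replicate 1 and 1419 CPM in replicate 2 (1004 ± 588, SD, n = 2). Rplp0, the base of the stalk that recruits elongation factors, was steady at 988 and 968 CPM. Rpl35, which sits at the rim of the exit tunnel, had 409 and 968 CPM, and Rpl13, a large subunit protein, 474 and 664 CPM. Rpl5, which carries the 5S RNA into the large subunit, had 213 and 747 CPM, and Rpl4, which lines the exit tunnel, 513 and 442 CPM. Rps14, the highest small subunit member and a protein of the messenger exit side, had 318 and 626 CPM. The muscle paralogue Rpl3l had 534 and 398 CPM, and Rpl24, at the face between the subunits, 295 and 572 CPM. Of these members, replicate 2 was lower for Rplp0, Rpl4 and Rpl3l and higher for the others.

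The median level of the large subunit genes was 155 CPM in replicate 1 and 268 CPM in replicate 2. That of the small subunit genes was 158 and 257 CPM, so the medians differed by less than the spread between the libraries. The summed reads of the large subunit were 2.16 and 2.34 times those of the small subunit (2.25 ± 0.126, SD, n = 2), for 49 against 31 genes.

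By place in the ribosome, the 4 genes of the stalk (Rplp0, its acidic partners Rplp1 and Rplp2, and Rpl12 at its base) summed to 1455 and 1776 CPM. Within this set Rplp1 had 266 and 489 CPM and Rplp2 166 and 276 CPM, whereas Rpl12 had only 35.6 and 43.1 CPM. The partners Rpl5 and Rpl11, which bind the 5S RNA together and are known to bind Mdm2 when ribosome assembly is disturbed, summed to 345 and 982 CPM. The 9 genes of the tunnel list (Rpl4, Rpl17, Rpl19, Rpl23a, Rpl26, Rpl31, Rpl35, Rpl38 and Rpl39) summed to 1951 and 3575 CPM and reached from Rpl35 at 688 ± 395 CPM down to Rpl17 at 7.42 ± 5.32 CPM. On the small subunit, the genes at the entry of the messenger (Rps2, Rps3 and Fau) summed to 475 and 592 CPM. The 11 listed genes whose mutation in people causes Diamond-Blackfan anaemia, a failure of red cell production, summed to 1722 and 3237 CPM. Among them Rps19, the most often mutated, stood at 128 and 260.3 CPM.

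The 7 genes outside the name rule that encode ribosomal proteins or copies of them summed to 1162 and 2065 CPM. Among them Rps3a1, a small subunit protein, had 248 and 309.8 CPM, Fau 105 and 168 CPM, and Rack1, a scaffold on the small subunit, 99.6 and 87.8 CPM.

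The least read members were Rpl10, a late-joining large subunit protein, with 4 reads in each library (3.65 and 6.39 CPM), and Rpl17, at the tunnel exit, with 4 and 7 reads (3.65 and 11.2 CPM). Rpl21 had 16 and 15 reads, Rpl7a 31 and 17, and Rpl30 22 and 26, all for the large subunit. Rps12, the lowest of the small subunit, had 39 and 18 reads (35.6 and 28.7 CPM). Rpl10 lay close to the level that a count of 0 allows.

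Processed copies of ribosomal protein messengers, inserted back into the genome without introns, are numerous in mice, and reads of a gene and its near-identical copy are hard to separate. The annotation holds 162 loci with reads whose best match among coding transcripts was a member (at least 90% identity over at least 100 bases), for 68 of the members. Of these, 156 are annotated as pseudogenes and 6 as coding loci with a predicted-gene name, and 134 were at least 97% identical to the member. Together they held 3216 and 3527 reads, or 15.99% and 16.75% of the reads of members and copies. For 11 members the copies had more reads than the gene in both libraries. Which of the copy reads came from the gene was not tested, so the levels of all 68 members with copies are uncertain, most of all for these 11. Members given above are among the 68. Rps19 had 132 and 201 reads on copies beside 140 and 163 on the gene. Rpl12 had 24 and 25 on a copy beside 39 and 27.

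The 4 most extreme cases were among the least read members. For Rpl17 the 4 copies held 88 and 87 reads, compared with 4 and 7 on the gene, a copy share of 94.1% ± 2.19 (SD, n = 2). For Rpl21, 8 copies held 245 and 243 reads, a share of 94.0% ± 0.224. Rpl35a, a large subunit protein on the anaemia list, had 29 and 30 reads, and its 12 copies had 203 and 245 (88.3% ± 1.12). Rpl30 had a share of 72.3% ± 3.46 on 3 copies. With copies added to their gene, the level of Rpl17 was 117 ± 46.7 CPM and that of Rpl21 325 ± 123 CPM, beside a median of 260.4 CPM over the members with copies added. The number of members below 50 CPM was 8 without copies and 2 with them. Rpl10 was one of these 2, with a single read on a copy in each library, and stood at 6.28 ± 2.42 CPM.

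Some single copies held many reads. Gm14303, identical to Rps29 over 171 bases, had 225 and 341 reads, compared with 261 and 360 on Rps29. Gm15500, identical to Rpl5 over 1018 bases, had 179 and 318 reads, compared with 233 and 468 on Rpl5. Rpl37rt, a transcribed copy of Rpl37, had 206 and 253 reads, compared with 122 and 190 on Rpl37. For Rps2, at the messenger entry, 10 copies held 263 and 140 reads, compared with 160 and 78 on the gene.

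**Figure D2:**
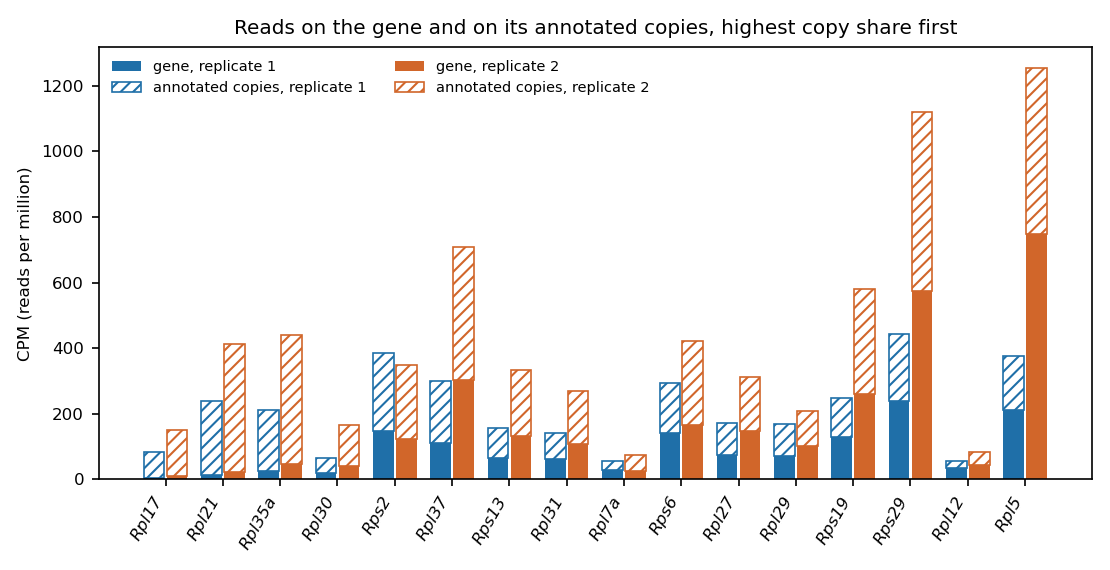
CPM on the gene (filled) and on its annotated copies (hatched, stacked on top) for the 16 members with the highest copy share, in replicate 1 (blue) and replicate 2 (orange). The filled part of Rpl17, Rpl21 and Rpl35a is a thin base under a column of copies, while Rps29 and Rpl5 have both parts of similar size.

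Paralogue pairs divided their reads in different ways. Rpl3l had 585 reads in replicate 1 and 249 in replicate 2, compared with 181 and 73 for Rpl3, the general form, so that Rpl3l took 76.4% (exact 95% interval 73.2% to 79.3%) and 77.3% (72.4% to 81.8%) of the pair. The mean share was 76.85% ± 0.678 (SD, n = 2), a 3.32-fold ± 0.127 excess over Rpl3, larger than the spread between the libraries. With annotated models alone the share was 71.8%. With copies added to their parent gene it was 69.2%, since Rpl3-ps1, 99.8% identical to Rpl3, held 93 and 30 reads.

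Rpl22l1, the paralogue of the RNA-binding Rpl22, had 115 and 134 reads, compared with 77 and 47 for Rpl22. Its share was 59.9% (52.6% to 66.9%) in replicate 1 and 74.0% (67.0% to 80.3%) in replicate 2, the only one of 5 tested pairs whose share differed between the libraries (Fisher's exact test, two-sided, Benjamini-Hochberg adjusted p = 0.0213 over the 5 pairs). Rpl36al, an intronless relative, took 66.6% ± 0.838 of the pair with Rpl36a. Rps27l, known as a target of p53, took 30.1% ± 0.671 of the pair with Rps27, from 73 and 95 reads against 166 and 226. Rpl7l1 took 22.5% ± 2.83 of the pair with Rpl7. The paralogues known from testis were not found: Rpl39l had 0 reads beside 170 and 319 of Rpl39, which allows a share of up to 1.76% and 0.940%, and Rpl10l had 0 reads beside the 4 and 4 of Rpl10, too few to limit its share. For the 4 other tested pairs the adjusted p was 0.852 each, which does not show that their shares were equal.

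**Figure D3:**
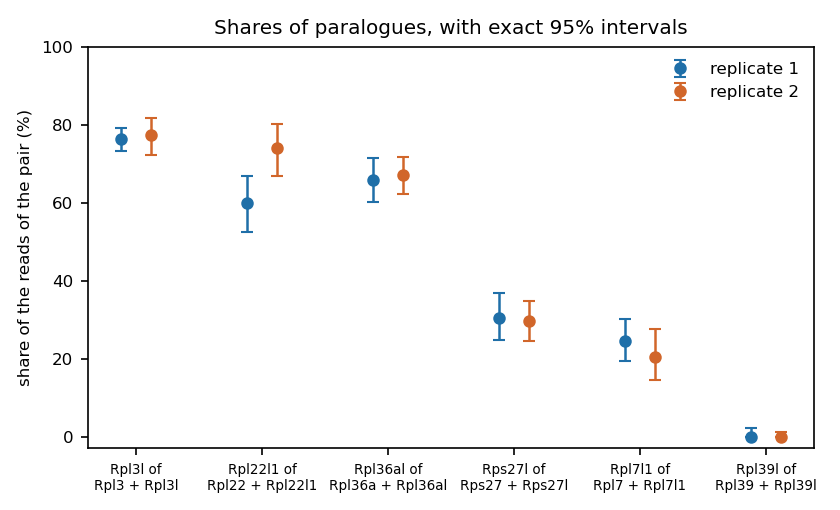
Share of a pair's reads on the paralogue, in percent, in replicate 1 (blue) and replicate 2 (orange), with exact Clopper-Pearson 95% intervals as bars. Rpl3l and Rpl36al hold most of their pair in both libraries, Rpl22l1 differs between the libraries, and Rpl39l is at 0.

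Read structure was set against the coding introns of the principal coding model of each gene. Over the 70 members with at least 50 reads in each library, the median share of reads with every coding intron was 95.9% and 94.7%, compared with 88.0% and 84.2% over the 1162 coding genes with that many reads, members included. Annotated models held 87.1% and 78.9% of member reads, compared with 71.8% and 71.7% of the reads of all annotated genes. The members are short, with a median coding length of 454.5 bases, and neither comparison was matched for length.

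Of 75 members with at least 20 reads in each library, 74 had the same leading model in both, and the median share of that model was 89.0%. In 71 it was an annotated coding model, and in 36 it held over 90% of the reads. In 19 it held under 80%, among them Rpl7l1 (38.3% ± 9.94), Rpl31 (39.4% ± 9.92), Rps21 (61.2% ± 5.75) and Rpl38 (65.1% ± 1.79). For Rpl38, an exit tunnel protein, Rpl38-204 had 150 and 203 reads and Rpl38-201 had 63 and 100. Rps28 likewise was divided between Rps28-205, with 163 and 211 reads, and Rps28-201, with 53 and 78.

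Among the reads placed on it, Rpl5 was led by a model that lacks its first exons. Its leading model was Rpl5-204 (chromosome 5, 107904114 to 107908050), annotated as a noncoding transcript with a retained intron, with 179 and 422 reads (76.8% and 90.2%). The 2 introns of Rpl5-204 are the last 2 of the 7 introns of the coding Rpl5-201, which had 49 and 33 reads (21.03% and 7.05%). The copy Gm15500, identical to Rpl5 over 1018 bases, held 179 and 318 further reads. Which of these came from Rpl5 was not tested, so the shares depend on where such reads were placed. For Rpl39, at the exit tunnel, Rpl39-201 had 139 and 156 reads, and a model of 1 exon and 230 bases, inside the last exon, had 30 and 163. Rpl4 likewise had a model of 1 exon and 397 bases with 9 and 56 reads beside 507 and 194 on Rpl4-201. In all 3 genes the shorter forms took a larger share in replicate 2. The ends of annotated models are those of the annotation, not of the reads.

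Rps24, mutated in some families with Diamond-Blackfan anaemia, had an unannotated leading model. It had 6 exons (chromosome 14, 24490681 to 24495858, plus strand) and 90 and 60 of the gene's 153 and 129 reads. It carries an exon of 36 bases at 24494052 to 24494087 that, with these ends, is in none of the 12 annotated models. Over all models this exon was in 81.7% of Rps24 reads in replicate 1 (exact 95% interval 74.6% to 87.5%) and 87.6% in replicate 2 (80.6% to 92.7%). A form of 18 bases with the same start, 24494052 to 24494069, which 1 annotated model holds, was in 12.4% and 7.75%. Reads with neither form were 9 and 6.

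Rpl10a and Rpl22l1 each have acceptors 3 bases apart at the start of exon 2. In Rpl10a, a large subunit protein, the upstream acceptor (chromosome 17, 28328811) held 230 of 231 reads in replicate 1 and 222 of 225 in replicate 2, although the principal coding model of the annotation uses the downstream one. In Rpl22l1 the downstream acceptor (chromosome 3, 28806503) held 70.5% (exact 95% interval 61.2% to 78.8%) and 71.0% (62.4% to 78.6%) of the reads that used either. Most reads of Rpl10a, Rpl22l1 and Rps24 therefore lack the exact intron set of the principal model.

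**Figure D4:**
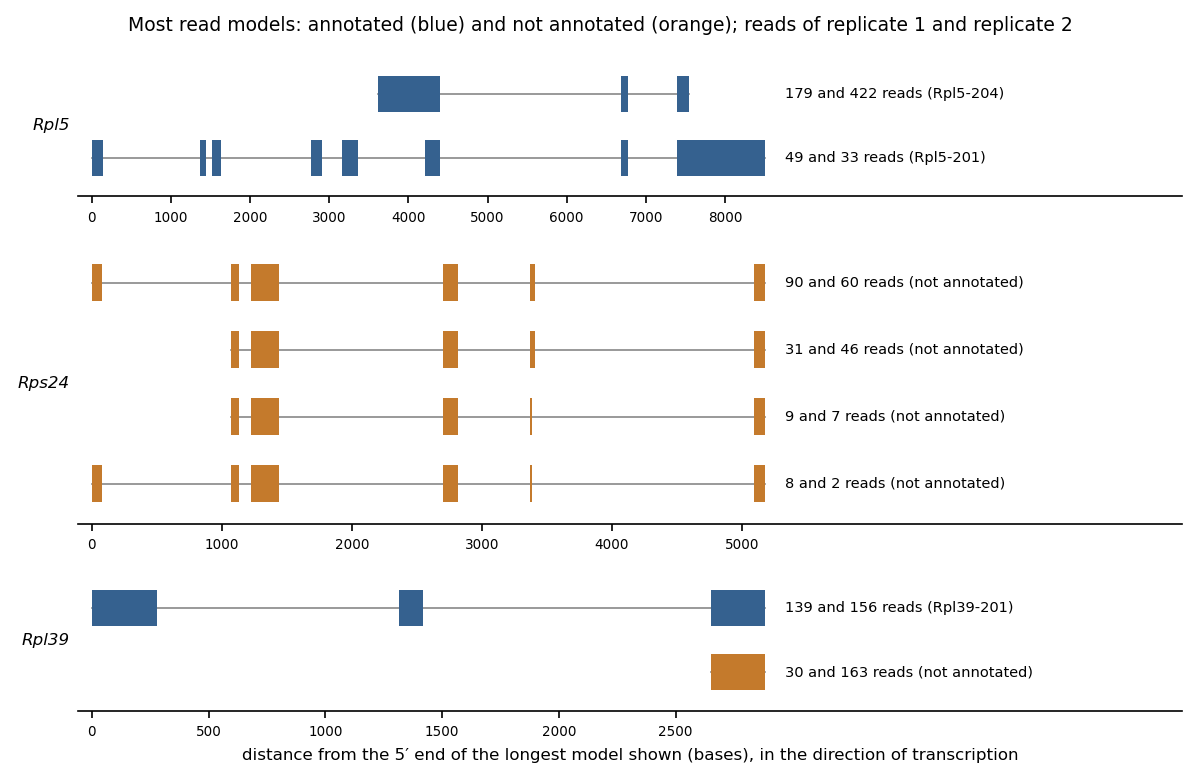
Exons (boxes) and introns (lines) of the most read models of Rpl5, Rps24 and Rpl39, to scale within each gene, as distance in bases from the 5′ end of the longest model shown, with annotated models in blue, other models in orange, and the reads of replicate 1 and replicate 2 at the right. The leading model of Rpl5 lacks the first exons, and those of Rps24 carry a short exon before the last.

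Model shares could be compared between the libraries for 1197 genes, of which 318 (26.6%) differed (adjusted p under 0.05 after Benjamini-Hochberg correction of Fisher's exact or chi-square tests). Among the 70 members with enough reads 11 differed, a share below that of all genes. The test finds smaller differences in genes with more reads. The shares were not matched for reads or for the number of models per gene, so nothing is read from them. Among the 11 were Rplp0, Rpl5, Rpl4, Rpl3l, Rpl39, Rps25, Rps3, Rpl23, Rps9 and Rpl11. The adjusted p was 1.68e-21 for Rpl4 and 5.78e-11 for Rpl39.

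Ribosomal protein genes as a set differed between the libraries. By Fisher's exact test on reads, 54 of 79 tested members differed (Benjamini-Hochberg adjusted p under 0.05 over 7955 genes), and 13.5% of all tested genes did. Of the members 53 were higher in replicate 2, against 6.56% of all genes, and 1 was lower, against 6.89% of all genes. The median log2 ratio of replicate 2 over replicate 1 was 0.78 for the members and -0.24 for all genes tested, and 71 of 79 members had a positive ratio. Rpl10, with 4 reads in each library, was not tested. The test compares 2 libraries and not conditions, and only counting error enters it.

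Of the genes described above with incomplete models, Rpl5 and Rpl39 had large ratios, while Rpl4 stood at 0.861-fold (log2 -0.21, adjusted p = 0.193 by Fisher's exact test). Rpl5 was 3.51-fold higher in replicate 2 (log2 1.81, adjusted p = 3.69e-57 by Fisher's exact test) and Rpl39 3.28-fold (log2 1.71, adjusted p = 5.29e-36). All models of a gene count in these ratios. Reads with every coding intron were 49 in replicate 1 and 33 in replicate 2 for Rpl5, and 139 and 156 for Rpl39. Reads with only the last coding introns of Rpl5 were 183 and 429. Unlike the ratios, these counts are not scaled to the library totals of 1094607 and 626289 reads, so they do not give a direction between the libraries. Reads on the Rpl5 copy Gm15500 are not among them. Rpl37, a large subunit protein, was 2.72-fold higher, Rpl38 2.46-fold, Rpl41 2.41-fold and Rps29, on the small subunit, 2.41-fold. The small subunit members Rps16, Rps27 and Rps28 and the large subunit members Rpl35 and Rpl36a followed between 2.33-fold and 2.40-fold. Rpl3l was the only member called lower, at 0.744-fold (log2 -0.43, adjusted p = 0.00118), and Rpl3 stood at 0.705-fold (adjusted p = 0.0717).

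The ratio went with the length of the coding sequence. The 10 members of up to 300 bases had a median log2 ratio of 1.26, and all 10 were called higher in replicate 2. From 300 to 600 bases the median was 0.86 over 47 members (35 called higher), and from 600 to 900 bases 0.29 over 19 members (8 called higher and Rpl10 not tested). The 4 members above 900 bases, Rpl3, Rpl3l, Rpl4 and Rplp0, had a median of -0.32. Other genes in the same ranges had medians of 0.70, 0.25, -0.09 and -0.38, so members of the 3 shorter ranges lay above other genes of like coding length. Genes of like coding length can differ in transcript length, for which these ranges were not matched. Over the 79 members, which share both libraries, Pearson's r between ratio and coding length was -0.70 and Spearman's rho was -0.69, given as a description.

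**Figure D5:**
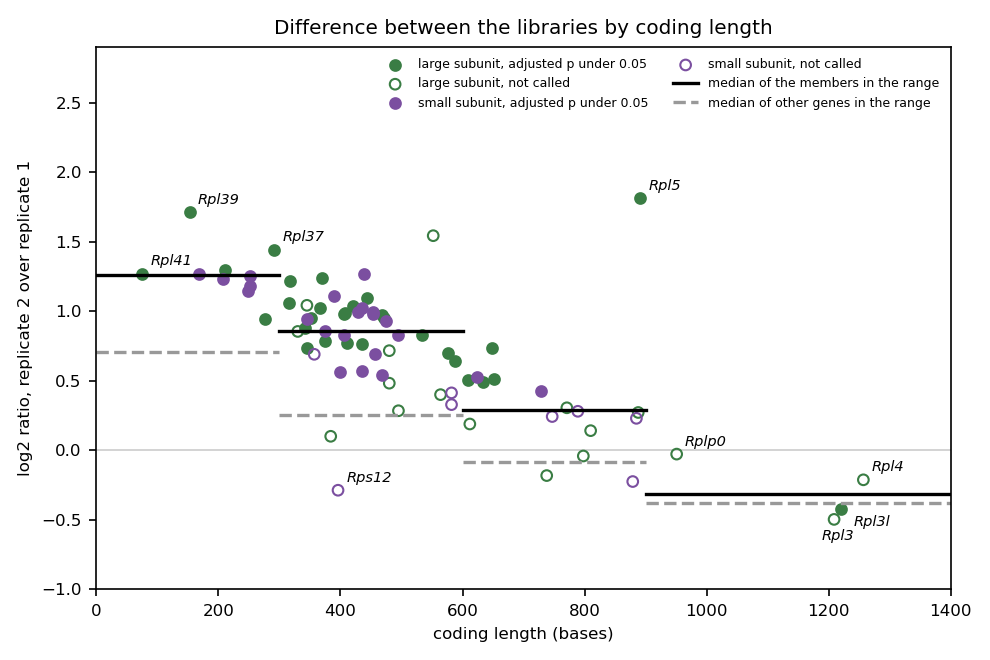
Log2 ratio of replicate 2 over replicate 1 against coding length in bases for the members shown, green for the large and purple for the small subunit, filled where the adjusted p was under 0.05. Black lines are the medians of the members and dashed grey lines those of other genes in 4 ranges of length. The ratios descend with length, and Rpl5 lies above the other filled points of similar length.

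When each gene was set against genes in the same of 20 bins of transcript length, 19 of 79 members differed, compared with 6.11% of all genes. Of these members 12 were higher, against 3.51% of all genes, and 7 lower, against 2.6% of all genes. The median log2 ratio was 0.02 for the members and -0.02 for all genes tested. Here the reference was the summed reads of the bin, members included, in which the most read genes weigh most. The medians by coding length above are over other genes alone, so the 0.02 does not show that members matched them. With all models of a gene counted, Rpl5 (log2 1.79, adjusted p = 9.13e-56 by Fisher's exact test) and Rpl35 (log2 0.97) stayed higher in replicate 2. Rpl41, Rpl38 and Rps29, among the shortest, were no longer called. Rpl3l was called lower in both comparisons, and that call was lost under TMM scaling of the library totals, where 60 members were higher and 0 lower. Rps15a was placed among long genes by its annotated model, with a mean model length of 5094 bases, so its log2 ratio of 1.78 there compares it with unlike genes. Rps20 was likewise placed by a mean model length of 3571 bases beside a coding length of 357 (log2 1.31). Of others called higher there, Rps3 had 1782 beside 729 bases, Rps25 1187 beside 375 and Rpl35 940 beside 369. The same held for Rps16 (1098 beside 438), Rpl23 (944 beside 420) and Rpl37 (826 beside 291). These members are examples, and calls of members as higher in this comparison carry the same limit.

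Other lists of translation genes were set beside the members, with the 6.56% of all genes called higher and 6.89% called lower as the background. Of 15 other genes listed with a terminal oligopyrimidine tract, 1, Tpt1, was higher in replicate 2 and 3 were lower, with a summed level of 2738 and 2334 CPM. The lower ones were the elongation factors Eef2 (452 and 232 CPM) and Eef1a1 (183 and 105 CPM) and the initiation factor subunit Eif3h (142 and 92.6 CPM). Of 22 tested genes for ribosome biogenesis 2 were higher, Nop10 and Nhp2, both small proteins of the particle that modifies ribosomal RNA, and 0 were lower. The shares called higher in these lists of 15 and 22 genes are near that of all genes, so nothing is read from them. The 78 mitochondrial ribosomal protein genes had 22 higher and 0 lower, with a summed level of 5310 and 7514 CPM, and the members' 1.81-fold ratio of sums was above their 1.42-fold. That difference between the lists was not tested.

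Markers of other cell types moved with the libraries too. All 3 fibroblast markers, Col1a1, Col3a1 and Dcn, were lower in replicate 2 (6894 and 2711 CPM in sum). Of 3 erythroid markers, Hba-a1 and Hbb-bs were higher and Alas2 was not called (621 and 1138 CPM in sum). Of 2 endothelial markers, Cldn5 was lower and Pecam1 was not called (233 and 121 CPM in sum), and neither macrophage marker was called (47.5 and 33.5 CPM). Their part in the difference of the members was not tested, and in tissue RNA fewer cells of a type and less RNA per cell cannot be told apart. The markers were not matched for length either, and whether their ratios went with length was not tested.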

How the data were processed

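Each library has a table of whole counts of reads for its transcript models, deposited by the authors with an annotation of all models whose columns are genome positions. Per the file headers each row gives gene, model, exons, length and class, and per the labels the build is mm10. The descriptions deposited with the files name GENCODE M21. The aligner and counter: not given in the sources used here.

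Counts were summed per annotated gene, without ERCC spike-ins, and given per 1000000 reads. Genes with at least 10 reads in both libraries together were compared between libraries by Fisher's exact test (two-sided, Benjamini-Hochberg, threshold 0.05), with 0.5 reads added for log2 ratios. Model shares were compared where each library had at least 50 reads. Unannotated models were joined by their introns. Copies were found with BLAST 2.17.0, and tests were checked on simulated counts. Python 3.11.15, scipy 1.17.1 and edgeR 4.0.16 (TMM) were used.

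Members and lists were chosen with earlier results of these data known. Named are the 10 highest and 5 lowest members, paralogue pairs, up to 12 that differed with the largest ratios, members with a leading model under 80% or not annotated, the 2 nearest the median and list members with at least 20 reads. Others were named after their values were seen: Rpl10a, Rps15a, Rps20, and the copies. Some genes under this rule are not reported here, though their reads count in sums, medians and numbers of members.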

Additional observations from a re-analysis of the deposited data

How the results depend on the processing

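Alternatives covered the classes of model counted, TMM scaling of the library totals, read minimums, bins of transcript length, thinning of replicate 1, leaving out each replicate, and the 7 ribosomal protein genes outside the name rule. Adding annotated copies to their gene was chosen after seeing the data. With annotated models alone, per 1000000 reads on such models, the median level of the members was 282 CPM in place of 208, the ratio of large to small subunit reads 1.92 in place of 2.25, and the Rpl3l share 71.8% in place of 76.85%. With copies added the Rpl3l share was 69.2%. Within bins of transcript length 19 members differed between the libraries in place of 54, of which 12 were higher in replicate 2. Under TMM scaling (factors 1.07 and 0.938) the median log2 ratio of all genes moved from -0.24 to -0.05 and 60 members differed, all of them higher in replicate 2, so the call of Rpl3l as lower was lost. Under the other alternatives between 51 and 57 members differed. Leaving out a replicate gave a summed level of 15432 to 27989 CPM, a median of 156 to 259 CPM, a subunit ratio of 2.16 to 2.34, an Rpl3l share of 76.4% to 77.3% and an annotated share of 78.9% to 87.1%. No paired analysis was possible because there is 1 group. With 2 libraries of unlike depth, differences between members near the floor of 3 reads could not be measured.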
